A study of Homo sapiens with 6 samples.

Results

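Ribosome biogenesis was represented in the screen by 200 hairpins (short hairpin RNAs, or shRNAs) against 25 genes, of 7293 hairpins against 912 genes counted in all. They were taken by gene symbol, with 8 hairpins a gene: 9 nucleolar factors (POLR1B, TTF1, UTP3, EMG1, NAT10, WBSCR22, BOP1, NOC2L and FTSJ3) and 16 DEAD/DEAH-box helicases (DDX10, DDX18, DDX21, DDX24, DDX27, DDX31, DDX47, DDX49, DDX50, DDX51, DDX52, DDX54, DDX55, DDX56, DHX33 and DHX37). All 25 symbols matched a gene by Entrez identifier, and WBSCR22 is now called BUD23. The cells were SKK-1, an established line of acute myeloid leukemia that arose from a myelodysplastic syndrome. Cells transduced in triplicate with the Epi9 lentiviral pool and selected with puromycin were divided. The 3 AZA libraries came from the portions given 0.25 µM azacitidine (AZA), a cytidine analogue built into RNA and DNA, every 2 days for 14 days, and the 3 untreated libraries from the other portions of the same cultures, which received no drug. Both groups carried the whole pool, and all data are from this 1 cell line. Hairpins were counted by sequencing from genomic DNA at day 14, so that counts follow the number of harvested cells with each hairpin. No library of the starting pool was analysed here, and the knockdown of each gene was not measured by these counts.

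Ribosomes are built in the nucleolus. RNA polymerase I transcribes a long precursor RNA there, which is folded, chemically modified and cut while ribosomal proteins assemble on it. One branch of this pathway gives the small subunit around the 18S RNA, and the other gives the large subunit around the 5.8S and 28S RNAs. DEAD/DEAH-box helicases use ATP to remodel the RNA and to release small nucleolar RNAs that guide the cuts and modifications. Growing leukemic cells need a steady supply of ribosomes, and most genes of the pathway are needed by dividing cells.

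The guide is the strand of a hairpin that pairs with the target RNA, and its seed, bases 2 to 8 from the 5′ end, leads the pairing. Guides are shown 5′ to 3′ with the seed in capitals, from the part of the study's library table that was read here, which covers 144 hairpins of 18 of the genes. The 136 of them that target the 17 genes other than BOP1 were placed on transcripts. The 8 guides against DDX51, the gene with the highest difference between AZA and untreated libraries, were these.
DDX51.1133: tCGTCGATaatcaggaagcgga
DDX51.1664: tTCAGGATcatcctcctctggc
DDX51.2296: tCTGGGAGtacttttcaccgtt
DDX51.3167: tTGTGTACgtttctgtgtggat
DDX51.3241: tTATTCTCcattcatcagctga
DDX51.3548: tTCACACActgtatccacccag
DDX51.3745: tGCATCTCtaatcagctgccag
DDX51.3777: tTTGTTTGaacacagtccacag
DDX51.1133 and DDX51.1664 pair with the coding sequence of DDX51 and the other 6 with its last exon, in the 3′ UTR (chromosome 12, minus strand of GRCh38). The target of DDX51.2296 is chr12:132138995-132139016 and that of DDX51.3745 is chr12:132137546-132137567. None of these guides overlap or share a seed.

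A further set shows guides that lie almost on top of each other, some of which still gave different counts. Those against DDX27, the gene with the lowest difference, fall on exons 4 and 5 of its coding sequence on chromosome 20.
DDX27.517: tTGAAGGTcttcctgctccttt
DDX27.523: aTTCTCTTgaaggtcttcctgc
DDX27.610: tTTGAGTGtatctgctttggtg
DDX27.614: tTACTTTGagtgtatctgcttt
DDX27.615: tTTACTTTgagtgtatctgctt
EMG1.89: tTAAATAAgaacagcgcggctt
EMG1.91: tCTTAAATaagaacagcgcggc
DDX27.517 targets chr20:49223330-49223351 and DDX27.523 chr20:49223336-49223357, while DDX27.610, DDX27.614 and DDX27.615 pair across the junction of exons 4 and 5. EMG1.89 and EMG1.91 matched no GENCODE transcript. They matched the genome at chr12:6970869-6970890 and chr12:6970871-6970892, upstream of the annotated start of EMG1 at position 6970913. EMG1.66 lies there too, at chr12:6970846-6970867.

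The remaining guides shown belong to the hairpins with the largest differences in either direction.
DDX18.2395: tAAAATGGtaacatacacttgt
DDX56.1248: tTGAGTGCttgtacgtcctcgt
DDX56.1287: tGTAACTTaagggtaaccgggt
DDX52.2609: tTGTACAAcattatgacagcac
DDX54.411: tTGCCATCcaagatcaccggga
DHX33.1307: tATCAAACttctcaaactcgtc
DDX56.1248 targets exon 5 of DDX56 at chr7:44572369-44572390, and DDX56.1287 crosses into exon 6. DHX33.1307 targets exon 7 of DHX33 at chr17:5453846-5453867, and DDX54.411 exon 4 of DDX54 at chr12:113179306-113179327. DDX18.2395 and DDX52.2609 lie in 3′ UTRs, at chr2:117831007-117831028 and chr17:37613510-37613531.

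Of the 136 guides, 131 matched a transcript of their own gene over all 22 bases, 93 of them in coding sequence, 36 in a 3′ UTR and 2 in a 5′ UTR. The 5 others were EMG1.66, EMG1.89, EMG1.91, DDX52.832, which matched only an alternate scaffold of chromosome 17, and DDX56.2380, which matched just past the annotated 3′ end of DDX56. In 24 cases the guide also matched another annotated gene, mostly a pseudogene (DDX10P2, DDX18P3, DDX50P2, DDX55P1) or a readthrough transcript: all 8 guides against DDX47 match transcripts annotated to APOLD1. There were 5 seeds shared by more than 1 guide, over 14 guides. The seed TCTTCTT stands in 5 of them, DDX27.639, DDX49.1155, DDX54.2259, DDX54.288 and DDX54.291.

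The AZA libraries held 18542022, 20309292 and 22587662 counts and the untreated libraries 12292575, 18035555 and 19645459, with a median hairpin at 2035 to 2511 counts under AZA and 1229 to 1953 without drug. The 200 hairpins took 2.08% to 2.25% of the counts under AZA and 2.18% to 2.22% without drug. At 0 counts stood 0, 2 and 3 of them in the AZA libraries and 4, 5 and 5 in the untreated libraries. Values are given as CPM (counts per 1000000 counts of the library), of which 3 counts make 0.133 to 0.162 under AZA and 0.153 to 0.244 without drug. Replicates varied far more than counting error: over the 200 hairpins log2 CPM correlated at 0.472 to 0.484 between AZA libraries and at 0.288 to 0.384 between untreated libraries. The untreated libraries were less even over the whole pool, and the mean log2 value was higher under AZA for 752 of 912 genes, so the members are set against that shift.

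Several of these knockdowns were scarce among the cells that grew without drug. The level of a gene is given as the mean over its 8 hairpins of log2(CPM + 1), less the value of the median hairpin of that library, so that 0 is the middle of the pool. In the untreated libraries 8 of the 25 genes (32%) were in the lowest 10% of genes by this level, beside 9.98% of all genes by construction: DDX56, FTSJ3, NOC2L, BOP1, NAT10, DDX51, DDX47 and DHX37. The first 5 of them were in the lowest 5%. Under AZA 7 of 25 (28%) were there, and 6 genes were in the lowest 10% in both groups: DDX56, FTSJ3, NOC2L, BOP1, NAT10 and DDX47. Both groups come from the same 3 cultures, so this is not independent evidence. DDX56, FTSJ3 and NOC2L were in the lowest 10% in each of the 6 libraries. Related lists also had medians below the middle of the pool. The median percentile of genes without drug was 35.42 for the 25 members and 36.79 for 40 other DEAD/DEAH-box helicases. For 14 other genes of ribosome synthesis it was 39.64. By hairpin the median level without drug was -0.64, -0.48 and -0.21 in these lists, beside -0.20 for all hairpins.

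DDX56, a helicase of large subunit assembly, had the lowest level of the 25 without drug. Its level was -1.38, -2.06 and -1.36 in the AZA libraries and -2.92, -2.54 and -2.47 in the untreated libraries, rank 15 and rank 7 of 912 genes from the bottom. The deficit was not shared by all of its hairpins: 4 of 8 averaged below 25% of the library median without drug, and DDX56.2380, whose guide matched no annotated transcript, stood above it at 167.9, 164.7 and 219.9 CPM under AZA and 382.8, 170.0 and 216.6 CPM without drug. DDX56.1287 had 17.4, 20.1 and 16.2 CPM under AZA and 3.17, 0 and 3.41 CPM without drug.

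FTSJ3, a methyltransferase-family factor of pre-ribosomal RNA processing, had levels of -1.44, -1.75 and -1.38 under AZA and -2.75, -2.97 and -1.87 without drug. All 8 of its hairpins averaged below the library median in both groups. FTSJ3.3133 was the scarcest, at 0.163, 0 and 3.61 CPM without drug, against a median hairpin near 100 CPM. NOC2L, a nucleolar factor whose yeast counterpart acts in large subunit assembly and which also binds and inhibits histone acetyltransferases, had levels of -1.39, -2.0 and -0.99 under AZA and -2.41, -3.02 and -1.79 without drug, again with all 8 hairpins below the median in both groups.

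BOP1, which forms with PES1 and WDR12 the complex that processes the large subunit RNAs, had levels of -1.04, -1.85 and -3.08 under AZA and -2.34, -2.63 and -1.53 without drug. It was the lowest of the 25 genes under AZA, rank 6 of 912, although its 3 AZA libraries spread over more than 2 log2 units. NAT10, which acetylates cytidines of 18S RNA, had -0.65, -1.69 and -0.61 under AZA and -2.35, -1.45 and -2.50 without drug. DDX47, a helicase of the small subunit branch, had -0.70, -1.75 and -2.50 under AZA and -1.05, -1.12 and -2.59 without drug, and was in the lowest 10% in AZA replicates 2 and 3 and in untreated replicate 3.

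DDX51, a helicase of large subunit assembly, and DHX37, which displaces the U3 small nucleolar RNA from the small subunit precursor, were in the lowest 10% without drug and not under AZA. The levels of DDX51 were -0.11, -0.20 and -0.09 under AZA, close to the middle of the pool, and -1.60, -3.0 and -0.51 without drug. Those of DHX37 were -0.68, -0.67 and -0.79 under AZA and -1.42, -1.0 and -2.06 without drug. Both had tight AZA libraries and widely spread untreated libraries. Without untreated replicate 2 DDX51 left the lowest 10%, without untreated replicate 1 DHX37 left it, and without untreated replicate 3 both DDX47 and DHX37 left it. DHX37 also left it with a pseudocount of 0.1 or 10 CPM and with the median over hairpins. Under AZA NAT10 left it without AZA replicate 2.

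By branch, the levels were lower for the subunit assembly factors than for the genes of RNA polymerase I transcription. These levels were not adjusted for the GC content of the guides, which is given below. Over the 88 hairpins of the 11 large subunit genes the median level was -0.76 under AZA and -1.01 without drug. Over the 72 hairpins of the 9 small subunit genes it was -0.35 under AZA and -0.68 without drug. The 40 hairpins of the 5 genes of RNA polymerase I transcription had -0.12 under AZA and 0.15 without drug, near the pool (-0.10 and -0.20). Of the 200 hairpins 22 (11%) averaged below 25% of the library median under AZA and 52 (26%) without drug, beside 5.17% and 14.6% of all hairpins. The untreated count was 30 of 88 for the large subunit, 18 of 72 for the small subunit and 4 of 40 for RNA polymerase I.

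No gene of the RNA polymerase I group was in the lowest 10% by its mean level in either group. POLR1B, a core subunit of the enzyme, had mean levels of -0.53 ± 0.44 under AZA and -0.29 ± 0.49 without drug (SD over 3 libraries, as for the values that follow). TTF1, which ends its transcription, had -0.24 ± 0.32 and -0.35 ± 0.45. DHX33, a helicase that promotes transcription of the ribosomal RNA genes, had -0.39 ± 0.06 under AZA and -0.47 ± 0.72 without drug. The nucleolar helicase DDX21 had -0.26 ± 0.34 under AZA and -0.38 ± 0.51 without drug, and its close relative DDX50 had 0.19 ± 0.16 and -0.08 ± 0.79. In each of these 5 genes the group means differed by less than 1 SD of the untreated libraries.

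The other small subunit genes were closer to the pool. The methyltransferases of 18S RNA had intermediate levels, EMG1 -0.55 ± 0.36 under AZA and -0.93 ± 0.18 without drug, and WBSCR22 -0.32 ± 0.29 and -0.85 ± 0.55. UTP3, a part of the small subunit processome, had 0.17 ± 0.38 under AZA and -0.15 ± 0.45 without drug. Among the helicases of this branch, DDX10 had -0.41 ± 0.58 under AZA and -1.02 ± 0.73 without drug, and DDX49 -0.10 ± 0.21 and -0.66 ± 0.80. DDX52 had 0.04 ± 0.19 under AZA and 0.24 ± 0.30 without drug, the highest level of the 25 genes without drug.

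The remaining large subunit helicases ranged from DDX27 (-1.02 ± 0.59 under AZA, -0.76 ± 0.91 without drug), whose human protein binds the BOP1 complex, to DDX18 (-0.08 ± 0.45 and -0.18 ± 0.66). Between them were DDX24 (-0.58 ± 0.09 and -0.67 ± 0.79), DDX31 (-0.12 ± 0.30 and -0.62 ± 0.07), DDX54 (-0.60 ± 0.13 and -0.55 ± 0.56) and DDX55 (-0.31 ± 0.26 and -0.16 ± 0.64), each with the AZA value first. Their yeast counterparts act in large subunit assembly. DDX27 was in the lowest 10% under AZA only, and left it without AZA replicate 1 or without AZA replicate 3.

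Scarcity of a single hairpin seldom repeated over replicates. Of the 200 hairpins 26 (13%) were below 10% of the median count in at least 1 AZA library and 73 (36.5%) in at least 1 untreated library, beside 6.36% and 21.4% of all hairpins. In all 3 libraries of a group it was 0 under AZA and 3 (1.5%) without drug, beside 0.288% and 0.960% of all hairpins. Those 3 were FTSJ3.3133, DDX56.1287 and EMG1.89. Conversely, 51 of the 200 (25.5%, beside 15.8% of all hairpins) were below 10% of the median in one untreated library and above 50% of it in another. NOC2L.2032, for example, had 107, 39.4 and 56.7 CPM under AZA and 130, 0.0555 and 93.0 CPM without drug.

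The GC content of the guide moved with these levels, in the members as in the pool. Over the 1986 hairpins with a guide and counts, percent GC and level correlated at Pearson's r = -0.533 under AZA and -0.517 without drug, and over the 144 members among them at -0.556 and -0.505 (hairpins share libraries and genes, so no p is given). Without drug the median level was 0.30 for the 25 members with up to 7 G or C bases, -0.45 for the 56 with 8 or 9, -1.26 for the 54 with 10 or 11 and -2.70 for the 9 with 12 or more. For all hairpins in the same classes it was 0.73, -0.17, -1.08 and -1.70. In each class the median of the members was below that of all hairpins.

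Of the low genes, those with guides read here had guides above the median in GC, on average 47.7% for DDX56, 50.6% for BOP1, 46.0% for DDX51, 44.9% for DDX47 and 44.3% for DHX37, against a median guide of 40.9%. After a straight-line fit of level on GC, DDX56 was at the 3.61th percentile of the 249 genes with guides, against 0.803 before. BOP1 moved to the 16.5th percentile (3.21 before), DDX51 to 17.3 (6.43), DDX47 to 17.7 (9.24) and DHX37 to 20.1 (11.2). Of the other members with guides above that median, DDX54 (46.0%) moved to the 83.9th percentile (43.8 before), DDX49 (44.3%) to 67.9 (36.5) and DDX24 (42.6%) to 52.6 (36.1). Several genes with guides poorer in GC moved down: DDX18 to 28.1 (61.8), DDX52 to 55.8 (83.1), DDX21 to 26.5 (52.2), DDX10 to 14.1 (22.1) and EMG1 to 16.9 (25.7). Among the RNA polymerase I genes, DDX21, DDX50 and DHX33 averaged 35.2%, 38.1% and 38.6% GC. After the fit they were at 26.5, 65.5 and 35.7 (52.2, 67.5 and 47.4 before). The small subunit genes with guides then ran from 14.1 to 67.9 (9.24 to 83.1 before). Those of the large subunit ran from 3.61 to 83.9 (0.803 to 63.1 before). A difference between the branches apart from GC content was not tested. The guides of FTSJ3, NOC2L and NAT10 were not analysed here. The part of GC content in the levels without drug was not tested further, and without a starting library the level at transduction and the loss during culture cannot be told apart.

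Between AZA and untreated libraries no member hairpin passed the test. By edgeR's quasi-likelihood test 199 of the 200 hairpins passed the filter on low counts, and none had an adjusted p under 0.05 in either direction, beside 0.0138% of all hairpins called higher and 0.0551% called lower. The lowest adjusted p among members was 0.643, for DDX18.3222. At an unadjusted p under 0.05 stood 3 members with higher counts (1.90% of all hairpins) and 8 with lower counts (3.72%). The edgeR exact test called 0 members and the DESeq2 Wald test 4, 1 higher and 3 lower, beside 0.812% and 1.05% of all hairpins.

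Those 4 hairpins were DDX51.2296, DDX18.3222, DHX33.1307 and TTF1.565, and in each the groups did not overlap. DDX51.2296 had 149, 91.5 and 91.9 CPM under AZA and 21.5, 4.60 and 10.1 CPM without drug, a log2 fold change of 3.05 ± 1.02 (SE) by edgeR. DHX33.1307 had 54.3, 92.4 and 108 CPM under AZA and 182, 220 and 312 CPM without drug (-1.65 ± 0.52). TTF1.565 had 99.99, 146 and 127 CPM under AZA and 537, 216 and 197 CPM without drug (-1.5 ± 0.48). DDX18.3222 was abundant in both groups, at 532, 402 and 611 CPM under AZA and 796, 766 and 1059 CPM without drug (-0.93 ± 0.26). Neither DHX33 nor TTF1 moved as a gene with its hairpin: of their 8 hairpins 7 and 5 had a higher mean log2 value under AZA.

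Across the 3 pairs of libraries from 1 culture, 32 member hairpins (16%) were higher under AZA in each pair and 20 (10%) lower in each, beside 18.9% and 10.7% of all hairpins. Without overlap of the groups 14 (7%) were higher and 11 (5.5%) lower, beside 9.13% and 4.29%. With TMM scaling, which sets the pool-wide shift lower, 18 members were higher in each pair and 27 lower, beside 14.3% and 14.8% of all hairpins, so the balance of higher to lower depends on the scaling. Their median log2 ratio, AZA over untreated on the log2(CPM + 1) scale, was 0.35, beside 0.25 for all hairpins, but without untreated replicate 1 it was 0.206, below the 0.232 of all hairpins. It was 0.13 for the RNA polymerase I group, 0.45 for the small subunit and 0.37 for the large subunit. The median edgeR log2 fold change, with TMM scaling, was -0.130 for the members, below the -0.096 of all tested hairpins.

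The largest differences belonged to hairpins that had nearly vanished from some untreated libraries. FTSJ3.3133 had 69.7, 13.0 and 73.9 CPM under AZA and 0.163, 0 and 3.61 CPM without drug, a mean log2 ratio of 4.59 ± 1.17 (SD over 3 pairs). NAT10.487 had 56.8, 40.3 and 76.4 CPM under AZA and 0.163, 26.6 and 1.22 CPM without drug (3.78 ± 2.78). The groups did not overlap in either. DDX18.2395 had 114, 57.5 and 30.2 CPM under AZA and 105, 0.0555 and 0 CPM without drug (3.62 ± 3.07), so that its difference came from 2 of 3 pairs. DDX56.1248 had 8.47, 53.1 and 35.0 CPM under AZA and 0.0814, 51.5 and 0 CPM without drug (2.78 ± 2.58), and here too the values of 1 untreated library fell among those of the AZA libraries.

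In the other direction the differences were smaller. DDX54.411 apart, the hairpins had higher mean CPM without drug than those just named. DDX52.2609 had 30.5, 67.1 and 58.1 CPM under AZA and 178, 89.6 and 247 CPM without drug, a mean log2 ratio of -1.66 ± 1.11. POLR1B.1328 had 58.6, 100.4 and 55.3 CPM under AZA and 121, 102 and 351 CPM without drug (-1.23 ± 1.32), with AZA replicate 2 just below untreated replicate 2. DDX27.610 had 114, 35.9 and 41.5 CPM under AZA and 138, 112 and 170 CPM without drug (-1.30 ± 0.91). BOP1.230 had 104, 58.9 and 15.4 CPM under AZA and 126, 205 and 47.0 CPM without drug (-1.20 ± 0.81). In these last 2 the groups overlapped, although each AZA library was below its own untreated partner. The largest difference in this direction was that of DDX54.411 (-1.73 ± 1.08), a scarce hairpin. It was below 10% of the library median in AZA replicates 2 and 3 and in untreated replicate 2. Its values were 14.0, 0 and 5.71 CPM under AZA and 21.9, 5.82 and 22.6 CPM without drug.

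At the level of genes, with each gene's mean log2(CPM + 1) over its 8 hairpins fitted in limma over all 912 genes, 0 of the 25 genes passed an adjusted p of 0.05, beside 3.07% of all genes, every one of them higher. Of the 25, 7 genes were higher at an unadjusted p under 0.05 (22.3% of all genes) and 0 lower. The 7 were DDX51, NAT10, DDX56, FTSJ3, NOC2L, DHX37 and DDX31, and the first 6 of them were among the 8 genes that were lowest without drug. The difference uses the same untreated libraries as that level, so the 2 are not independent. With the culture as a block the limma fit called 4 genes higher, DDX51 (adjusted p = 0.0326), DDX56 (0.0428), NOC2L (0.0428) and FTSJ3 (0.0429), beside 4.93% of all genes. When each library was first centred on its median gene, 0 of the 25 passed with or without the block, and the lowest adjusted p was 0.349 without it and 0.0885 with it.

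DDX51 had the highest difference. Its gene mean was 6.69, 6.60 and 6.72 under AZA and 5.06, 3.62 and 6.14 without drug on the log2(CPM + 1) scale, a difference of 1.73 (95% interval 0.59 to 2.86, adjusted p = 0.110 in limma), and 1.36 (0.27 to 2.45) after centring. The groups did not overlap, and the value of untreated replicate 3 was the nearest to the AZA libraries. All 8 hairpins had a higher mean log2(CPM + 1) under AZA, which held for 4.5% of all genes and for 2 of the 25. On other scales this did not hold. Mean CPM was lower under AZA for DDX51.1664 (64.6, against 72.2 without drug) and DDX51.3167 (81.2 against 89.1). Their edgeR log2 fold changes were -0.33 and -0.32, and those of the rest were positive. DDX51.3745 had 101, 74.5 and 146 CPM under AZA and 43.3, 0.111 and 63.5 CPM without drug. DDX51.3241 had 170, 188 and 248 CPM under AZA and 156, 25.01 and 89.9 CPM without drug. Each of these was apart in the groups, like DDX51.2296. In the other 5 the groups overlapped: DDX51.3548 had 76.4, 187 and 115 CPM under AZA and 71.8, 0.388 and 173 CPM without drug, DDX51.1133 had 102, 53.8 and 72.7 CPM under AZA and 18.1, 1.83 and 162 CPM without drug, and DDX51.3167 had 71.9, 94.7 and 77.1 CPM under AZA and 0.407, 159 and 108 CPM without drug. In DDX51.3777 the values were 196, 90.1 and 72.0 CPM under AZA and 58.5, 46.4 and 120 CPM without drug (mean log2 ratio 0.65). In DDX51.1664 they were 41.4, 63.3 and 89.0 CPM under AZA and 83.8, 109 and 23.7 CPM without drug (0.03). Each of the 8 targets a separate site. The lowest untreated value was in replicate 2 for 6 of the 8, in replicate 1 for DDX51.3167 and in replicate 3 for DDX51.1664. The difference of DDX51 was 1.07 without untreated replicate 2 and 2.32 without untreated replicate 3, and 1.70 to 1.79 without any 1 of the other libraries.

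NAT10 had gene means of 6.14, 5.10 and 6.20 under AZA and 4.31, 5.18 and 4.15 without drug, a difference of 1.27 (0.43 to 2.11, adjusted p = 0.110). In replicate 2 the untreated library was the higher one. All 8 hairpins had a higher mean log2(CPM + 1) under AZA, with log2 ratios of 0.34 (NAT10.3177) to 3.78 (NAT10.487). By edgeR with TMM scaling the log2 fold change was negative for NAT10.238 (-0.83), NAT10.3043 (-0.54) and NAT10.3177 (-0.14) and positive for the rest. NAT10.2731 had 27.1, 0.739 and 36.6 CPM under AZA and 0, 14.7 and 0.356 CPM without drug, and NAT10.3043 had 29.9, 7.14 and 166 CPM under AZA and 154, 0.111 and 113 CPM without drug. In both of these the groups overlapped. NAT10.238 had 61.1, 17.6 and 37.9 CPM under AZA and 0.407, 150 and 30.3 CPM without drug, and NAT10.2521 had 189, 56.4 and 93.1 CPM under AZA and 121, 146 and 6.21 CPM without drug. NAT10.2993 had 156, 164 and 78.9 CPM under AZA and 235, 22.9 and 41.2 CPM without drug, NAT10.3063 had 69.4, 146 and 87.8 CPM under AZA and 136, 80.3 and 24.99 CPM without drug, and NAT10.3177 had 93.4, 127 and 66.7 CPM under AZA and 23.02, 140 and 117 CPM without drug. These 5 were higher under AZA in 1 or 2 of 3 pairs.

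DDX56 had gene means of 5.41, 4.73 and 5.45 under AZA and 3.74, 4.09 and 4.18 without drug, a difference of 1.20 (0.56 to 1.83), with the lowest adjusted p of the 25 genes, 0.0549. For FTSJ3 the means were 5.35, 5.05 and 5.42 under AZA and 3.91, 3.66 and 4.78 without drug, a difference of 1.16 (0.44 to 1.88, adjusted p = 0.0993). In both genes every AZA library was above every untreated one. NOC2L was at 5.40, 4.79 and 5.82 under AZA and 4.25, 3.60 and 4.86 without drug, a difference of 1.10 (0.27 to 1.93, adjusted p = 0.136), nearly the same in its 3 pairs (1.15, 1.19 and 0.955). DHX37 was at 6.11, 6.12 and 6.02 under AZA and 5.24, 5.63 and 4.59 without drug, a difference of 0.93 (0.27 to 1.60, adjusted p = 0.122). Of the 25 genes 6 had groups without overlap, all higher (DDX31, DDX51, DDX56, DHX37, EMG1 and FTSJ3), beside 24.6% of all genes. That is 24% of the members, close to the share in the pool.

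At the other end the differences were close to 0. DDX27 was at 5.49, 6.46 and 5.39 under AZA and 4.85, 6.47 and 6.34 without drug, a difference of -0.11 (-1.11 to 0.89). Its hairpins disagreed: DDX27.517 had 33.9, 34.8 and 43.0 CPM under AZA and 160, 114 and 40.8 CPM without drug, while DDX27.523, which shares 16 bases of target with it, had 57.3, 276 and 179 CPM under AZA and 1.06, 203 and 94.0 CPM without drug. DDX27.614 had 57.1, 60.5 and 42.1 CPM under AZA and 123, 114 and 100.2 CPM without drug, without overlap, and DDX27.615, 1 base further on, had 73.4, 124 and 65.1 CPM under AZA and 151, 27.2 and 23.2 CPM without drug. DDX27.1323 had 8.41, 650 and 0 CPM under AZA and 0.244, 57.0 and 76.0 CPM without drug, the widest spread of the 8. DDX27.639 had 210, 57.1 and 191 CPM under AZA and 208, 149 and 151 CPM without drug, and DDX27.1035 had 7.23, 32.2 and 51.8 CPM under AZA and 1.14, 50.2 and 91.7 CPM without drug. The groups overlapped in both.

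POLR1B was at 6.39, 6.63 and 5.78 under AZA and 6.74, 6.53 and 5.80 without drug, a difference of -0.09 (-0.83 to 0.64, adjusted p = 0.900). POLR1B.4173 varied little under AZA and 2-fold without drug, at 274, 293 and 288 CPM under AZA and 319, 163 and 332 CPM without drug, and POLR1B.1213 at 140, 186 and 146 CPM under AZA and 159, 107 and 97.5 CPM without drug. POLR1B.1586 had 48.2, 48.5 and 18.0 CPM under AZA and 346, 119 and 11.4 CPM without drug, a log2 ratio of -1.16, and POLR1B.1587, offset by 1 base, had a ratio of -0.20, with 49.7, 133.5 and 29.4 CPM under AZA and 137, 17.2 and 125 CPM without drug. POLR1B.3858 went the other way (1.51), with 130, 67.3 and 21.1 CPM under AZA and 57.5, 95.8 and 0.509 CPM without drug. POLR1B.1289 had 45.5, 33.5 and 47.4 CPM under AZA and 13.7, 98.1 and 75.95 CPM without drug, and POLR1B.4280 had 66.9, 103 and 56.0 CPM under AZA and 66.1, 137 and 43.98 CPM without drug. POLR1B.1328 was the 1 hairpin of the 8 whose groups did not overlap.

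The other genes lay between these ends. The differences of DDX49 (0.72), DDX10 (0.76), WBSCR22 (0.68), DDX31 (0.65), EMG1 (0.52), UTP3 (0.48) and DDX50 (0.43) were above the median gene of the pool (0.36) with all libraries, and those of BOP1 (0.33), DDX21 (0.28), TTF1 (0.26), DDX18 (0.25), DDX24 (0.24), DHX33 (0.23), DDX54 (0.10), DDX47 (0.09), DDX55 (0.00) and DDX52 (-0.04) below it. None of these had an adjusted p below 0.190 in limma. Single libraries moved several of them, and the median gene of the pool as well. Without untreated replicate 2 the difference was 0.0259 for DDX50 and 0.335 for DDX10, beside 0.324 for the median gene. Without untreated replicate 3 it was 0.261 for DDX49, 0.268 for UTP3 and 0.36 for WBSCR22, beside 0.336. Without AZA replicate 2 it was 0.326 for EMG1, beside 0.377. DDX10 and WBSCR22 thus stayed above the median gene in these settings. Intervals were wide: for BOP1 that of the difference ran from -0.74 to 1.40 and for DDX47 from -1.03 to 1.21, and a 2-fold difference in either direction lay within that of DDX47.

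Hairpins against nearly the same site often differed. By their numbers 21 pairs of member hairpins share 14 or more bases of target. The 2 hairpins had the same sign of log2 ratio in 9 pairs and opposite signs in 12, and their ratios differed by a median of 0.91. Their levels differed by a median of 0.67 under AZA and 1.04 without drug. In some of the 12 pairs a ratio was close to 0, as for DDX50.1753 (0.00, against -0.27 for DDX50.1754) and EMG1.349 (0.00, against -0.19 for EMG1.346). Gaps between hairpins at separate sites were not set beside these. EMG1.478 and EMG1.479, offset by 1 base, had ratios of 1.21 and 1.28, and DDX49.1238 and DDX49.1239 1.58 and 1.66. EMG1.89 and EMG1.91, offset by 2 bases, had the widest gap: EMG1.89 had 3.78, 70.5 and 31.0 CPM under AZA and 3.42, 7.26 and 0.713 CPM without drug, while EMG1.91 had 21.4, 77.2 and 120 CPM under AZA and 135, 146 and 248 CPM without drug. EMG1.91 was lower under AZA in each pair and EMG1.89 higher in each. DDX47.162 and DDX47.163, offset by 1 base, had ratios of -1.36 and 1.14.

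Other genes of ribosome synthesis in the pool were measured as well. Of the 14 further genes (NOP2, NSUN5, SKIV2L2, DHX15, RPS19BP1, NUFIP1, RUVBL1, RUVBL2, DDX5, DDX17, SIRT7, BAZ2A, MINA and C14orf169) 0 passed an adjusted p of 0.05 in limma, and 12 had a positive difference. The highest was NOP2, a methyltransferase of 28S RNA, at 1.05 (adjusted p = 0.139). RUVBL1, an ATPase that helps to assemble small nucleolar ribonucleoproteins among many other complexes, was at the 0.219th percentile of all genes without drug, and NOP2 at 7.13. NSUN5 (92.65) and NUFIP1 (86.18) were near the other end, and the median of the 14 genes was 39.64. The median log2 ratio was 0.46 over their 112 hairpins and 0.38 over the 320 hairpins of 40 other DEAD/DEAH-box helicases, beside 0.35 for the members. Over 399 hairpins of 50 genes of germ cells or other tissues it was 0.23.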

How the data were processed

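Guide strands were amplified by PCR from genomic DNA of 3 AZA and 3 untreated libraries and sequenced. The authors deposited 1 table per library of raw counts per hairpin, without normalization or molecular identifiers, and a hairpin not listed was set to 0. CASAVA 1.9 and the build GRCh37 appear in the submitters' processing notes. How reads were assigned to hairpins is not stated there.

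CPM was taken on the total of each library. Hairpins were tested in edgeR 4.0.16 (TMM, quasi-likelihood, CPM above 0.5 in at least 3 libraries, all hairpins) and genes in limma 3.58.1 on the mean log2(CPM + 1), with Benjamini-Hochberg adjustment over all hairpins or genes. DESeq2 1.42.0 was an alternative. The edgeR and limma fits were run on simulated counts with known changes as a check of the code. The simulated spread between replicates was capped and the single changed hairpins were abundant ones, so power in these data was not measured. The replicate numbers pair the samples, since each culture was divided: deviations from the group means correlated at 0.125, 0.117 and 0.143 within pairs and at -0.0999 to -0.0216 otherwise. P-values measure the spread between cultures of 1 line, and floors cover counting error only.

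Guides were matched over 22 bases to GENCODE 44 transcripts on GRCh38. The members and gene lists were chosen with earlier results of these data known. All 25 genes are described. Hairpins were named by the 8 largest mean log2 ratios per direction with 1 sign in 3 of 3 pairs and at least 50 counts in 3 libraries, by scarcity in all 3 untreated libraries, and for the 2 genes at each end. Other hairpins in the text (calls of DESeq2, overlapping pairs, NOC2L.2032 and DDX56.2380) were chosen after their values were seen.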

Additional observations from a re-analysis of the deposited data

How the results depend on the processing

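The count of member hairpins called by edgeR stayed at 0 with the replicate block and without any 1 library, and was 4 with the DESeq2 Wald test. The count of member genes called by limma was 1 with a pseudocount of 0.1 CPM (DDX56, beside 20 of 912 genes), 1 with 10 CPM (DDX51, beside 28 of 912), 4 with the replicate block (45 of 912), and 0 to 2 when 1 library was left out. The 2 were DDX51 and FTSJ3, without untreated replicate 3 (42 of 912). The median member log2 ratio was 0.234 with a pseudocount of 10 CPM (0.19 for all hairpins), 0.206 with TMM (0.09), and 0.206 to 0.418 without 1 library (0.203 to 0.276). Without untreated replicate 1 it was 0.206, below the 0.232 of all hairpins, and in the other settings on the log2(CPM + 1) scale above. The median edgeR log2 fold change of the members was below that of all tested hairpins with TMM (-0.130 against -0.096). It was also below with library totals (0.049 against 0.067) and with scaling on germ-cell and other-tissue genes (0.018 against 0.054). With the replicate block it was above (0.181 against 0.080). With TMM 18 member hairpins were higher in 3 of 3 pairs (14.3% of all hairpins) and 27 lower (14.8%). With scarcity set at 25% of the median, 6 member hairpins were scarce in all libraries under AZA and 13 without drug, beside 1.06% and 2.5% of all hairpins. With the libraries that remain after 1 is left out, the counts were 1 to 3 under AZA (0.548% to 0.631% of all hairpins) and 7 to 10 without drug (2.11% to 2.98%), since fewer libraries then have to agree.

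Of 41 single genes and hairpins, 15 genes and 0 hairpins took the other sign under some alternative. With a pseudocount of 10 CPM these were BOP1 (-0.0645), DDX47 (-0.0083) and DDX55 (-0.16), with 0.1 CPM DDX54 (-0.00337), and with TMM DDX47 (-0.0534), DDX54 (-0.0518) and DDX55 (-0.157). Scaling on germ-cell and other-tissue genes gave -0.012 for DDX55. The median over hairpins gave BOP1 -0.0181, DDX21 -0.0701, DDX47 -0.203, DDX50 -0.0887, DDX55 -0.558, DHX37 -0.318, EMG1 -0.0309 and TTF1 -0.0145. Centring on the median gene, added after seeing the data, gave with and without the replicate block BOP1 -0.0392, DDX18 -0.117, DDX21 -0.0906, DDX24 -0.13, DDX47 -0.28, DDX54 -0.266, DDX55 -0.368, DHX33 -0.136 and TTF1 -0.106. Without 1 library the difference ran from -0.143 to 0.87 for BOP1, -0.0303 to 0.622 for DDX18, -0.0102 to 0.467 for DDX21, -0.00715 to 0.695 for DDX24, -0.623 to 0.186 for DDX27, -0.41 to 0.506 for DDX47, -0.157 to 0.136 for DDX52, -0.101 to 0.422 for DDX54, -0.322 to 0.325 for DDX55, -0.174 to 0.493 for DHX33 and -0.371 to 0.149 for POLR1B. The cause of these changes was not tested. The alternatives for genes in the lowest 10% were also added after seeing the data. Without drug the count was 8 in the main setting, and 7 with either pseudocount or the median over hairpins. It was 6 or 7 without 1 untreated library. Under AZA it was 7 in the main setting and with either pseudocount, 8 with the median over hairpins and 6 without 1 AZA library.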
